A study of Mus musculus with 8 samples.

Results

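Hox genes encode homeodomain transcription factors that lie in 4 chromosomal clusters, and the 39 described here are the entries, among 23432 genes counted, whose symbol is Hoxa, Hoxb, Hoxc or Hoxd followed by a number. The rule that picks them uses the symbol alone. The data come from a study of MOF, a histone acetyltransferase encoded by Kat8, and of Kansl1, a subunit of the NSL complex, which along with the MSL complex holds MOF, in the epithelium of mouse skin. Poly(A) RNA was sequenced from 4 groups of 2 libraries each, and every measurement below is a count of reads per gene.

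The E16.5 control and E16.5 MOF cKO libraries were made from embryonic back skin, from which epithelial cells carrying the Krt14-H2BGFP reporter were sorted by fluorescence. The P0.5 control and P0.5 Kansl1 cKO libraries were made from newborn epidermis, freed from the dermis with dispase and lysed as a sheet on TRIzol without sorting. The knockout genotypes are given as MOFfl/fl/K14Cre and Kansl1fl/fl/K14Cre, so the floxed allele was homozygous and the Krt14 promoter drove Cre in the epithelium and not in dermal, blood, nerve or muscle cells. The control label lists no alleles. The study's text describes littermate controls, wild-type or heterozygous where it speaks of MOF cKO mice, and all mice were on a mixed C57Bl/6J and CD-1 background. All 8 libraries share the Directional library kit, and stage, isolation, sequencer (Illumina HiSeq for the first, NovaSeq for the other) and genotype series change together between the E16.5 and the P0.5 libraries.

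Hox proteins give cells their position along the head-to-tail axis of the embryo. Within a cluster the genes are laid out in the order of the body levels at which they act, genes of the same rank in different clusters are called a paralog group, and the clusters are opened by trithorax proteins and kept closed by Polycomb proteins. In adult skin, Hox expression is best known as a positional code of dermal fibroblasts, while in epithelium Hoxc13 is required for the hair shaft. The genes are taken here from the anterior end (paralog groups 1 to 3) through the central groups (4 to 8) to the posterior end (9 to 13).

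The libraries held 27561688 and 24957817 counts on genes in E16.5 control, 22484018 and 25876862 in E16.5 MOF cKO, 9108709 and 14327981 in P0.5 control, and 19774643 and 13712311 in P0.5 Kansl1 cKO. A single count was therefore worth 0.0326 CPM (counts scaled to library size with TMM factors) in the first E16.5 control library and 0.115 CPM in the first P0.5 control library, the shallowest of the 8. The whole Hox family took 10432 and 10699 counts in E16.5 control, 5616 and 7022 in MOF cKO, 1199 and 2561 in P0.5 control, and 3953 and 1969 in Kansl1 cKO.

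The targeted genes were looked at before the Hox genes. Kat8 had 443 and 408 counts in E16.5 control against 248 and 329 in MOF cKO; its log2 fold change of −0.14 was not called (adjusted p = 0.554, edgeR's quasi-likelihood test with Benjamini-Hochberg adjustment). Kansl1 had 355 and 745 counts in P0.5 control against 649 and 387 in Kansl1 cKO; its log2 fold change of −0.52 was not called either (adjusted p = 0.242, the same edgeR test). The counts cover whole genes. The Kansl1 allele loses the third exon alone, so reads on the other exons are still counted, and the exons lost from the MOF allele are not given in the sources used here. These gene counts thus neither bear out nor contradict the genotype labels. The study checked the Kansl1 deletion by genotyping, qPCR and reads over the exon. For MOF cKO it reported a reduced staining of H4K16ac, the histone mark that MOF sets, in E16.5 epidermis. These measures were not used here.

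The keratinocyte label was checked against 12 markers. None was at 0 in any group, and their summed level was 45791 and 42748 CPM in E16.5 control, 46701 and 53940 in MOF cKO, 94754 and 62425 in P0.5 control, and 64625 and 88122 in Kansl1 cKO. Krt5, a keratin of the basal layer, led at 19544 ± 145 CPM (SD, n = 2) in E16.5 control, and Krt1, a keratin of the layers above, led in both P0.5 groups. RNA of other cell types was present as well. The 14 dermal fibroblast markers summed to 1860 and 2350 CPM in E16.5 control, 2286 and 2732 in MOF cKO, 2553 and 1809 in P0.5 control, and 1835 and 1556 in Kansl1 cKO. None of the 14 was at 0 in any group, and the most abundant was Postn, at 794 ± 95.0 CPM in E16.5 control, a gene that epithelium can also express. Hox genes are active in dermal fibroblasts, and the part of this RNA in the Hox values below was not tested. In bulk samples such as these, fewer cells of a type and less RNA per cell cannot be told apart.

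The level of each gene was set per length, as CPM (scaled over the 8 libraries) per kilobase of annotated exon. The length is that of all GENCODE exons of a gene joined. The annotation used for counting is not given, so the lengths counted over may differ, and the order of genes with them. In E16.5 control the order ran from Hoxa7 at 11.6 ± 0.181 CPM per kb (SD, n = 2) through Hoxc8 at 10 ± 2.25, Hoxb8 at 9.96 ± 2.65, Hoxc4 at 9.54 ± 0.199, Hoxb6 at 9.20 ± 2.87, Hoxa5 at 8.51 ± 0.617 and Hoxb7 at 8.37 ± 1.77 to Hoxb3 at 7.86 ± 0.140. These neighbours were not separated, since the ranges of their 2 libraries overlapped. Between Hoxb3 and the next gene, Hoxa2 at 6.70 ± 0.690, the ranges no longer met. The central genes thus held most of the Hox RNA: they summed to 226 and 266 CPM (scaled within the stage) in the E16.5 control libraries, against 96.1 and 98.4 for the anterior genes and 17.9 and 21.7 for the posterior genes.

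The 4 clusters were used unequally. In E16.5 control the Hoxa genes summed to 91.8 and 93.4 CPM (scaled over the 8 libraries), the Hoxb genes to 134 and 157, the Hoxc genes to 81.7 and 98.6, and the Hoxd genes to 4.67 and 7.81. Hoxd8, at 1.13 ± 0.591 CPM per kb, and Hoxd4, at 0.854 ± 0.0579, were the most abundant of the Hoxd cluster. Of the 39 genes, 23 had over 10 counts in both E16.5 control libraries, and 12 had no more than 3 counts in either. The posterior end was close to silent in skin from the back. Hoxa13, Hoxc11, Hoxd12 and Hoxd13, which pattern the limb ends, tail and genital bud, had 0 counts in all 8 libraries, and a count of 0 allows up to 3 counts per library. Hoxa11 had 1 count in one MOF cKO library, Hoxb13 had 3 counts in one E16.5 control library, and Hoxd1 had 1 count in one P0.5 control library, each with 0 elsewhere.

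Hoxc13 was the exception among the most posterior paralogs. It had 188 and 281 counts in E16.5 control, 182 and 349 in MOF cKO, 44 and 72 in P0.5 control, and 250 and 96 in Kansl1 cKO, or 3.05 ± 1.08 CPM per kb in E16.5 control. Hoxb9 was the other posterior gene with over 10 counts in both libraries of every group, at 326 and 287 in E16.5 control, 360 and 308 in MOF cKO, 40 and 39 in P0.5 control, and 149 and 50 in Kansl1 cKO.

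**Figure D1:**
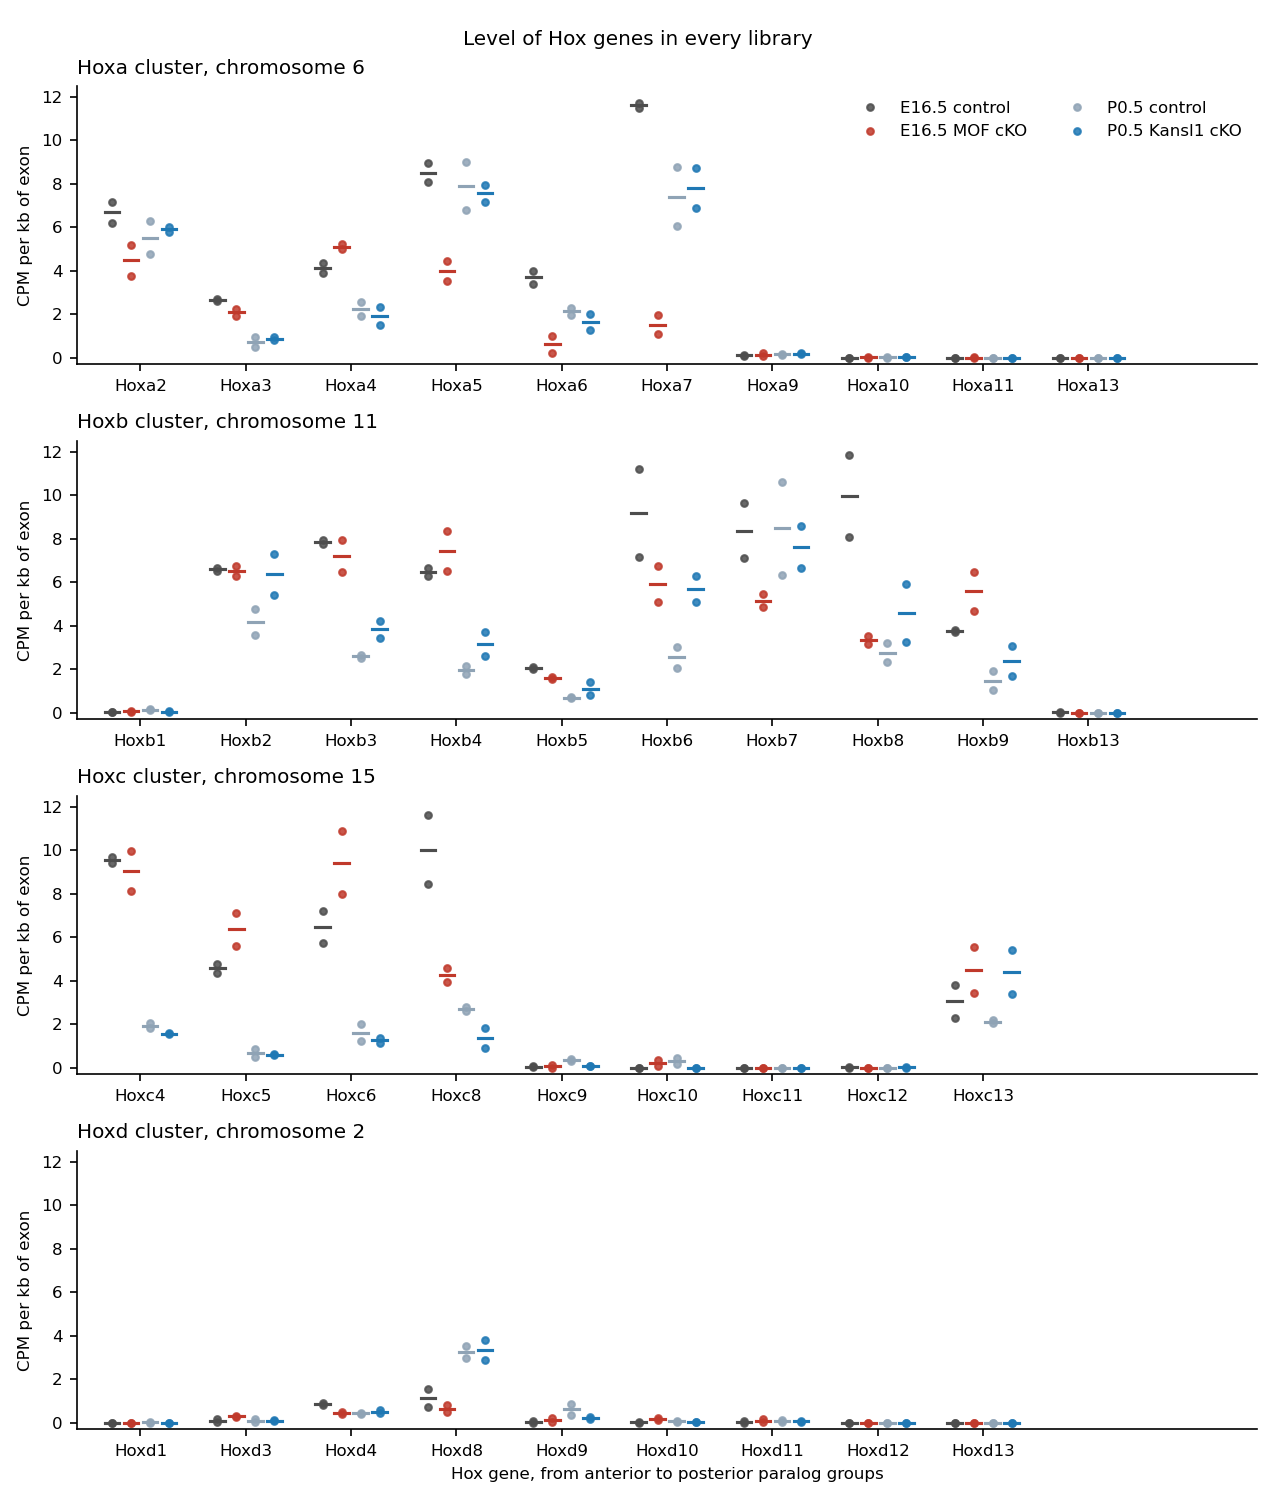
Level of Hox genes in CPM per kb of exon (vertical axis) in every library, with 1 panel per cluster and genes ordered by paralog group; points are the 2 libraries of a group and bars their mean. Hoxa7 was at 11.6 CPM per kb in E16.5 control and 1.51 in E16.5 MOF cKO, and the posterior genes other than Hoxb9 and Hoxc13 lay near 0.

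Loss of MOF was compared with control at E16.5 to see which Hox genes differ without it. A gene was called when its adjusted p was at or below 0.01 and its fold change over 1.5. Of the 24 Hox genes with enough counts to be tested, 4 fell, all from the central paralog groups: Hoxa5, Hoxa7, Hoxb8 and Hoxc8. Among all 13956 genes tested, 9.59% were called lower. At an unadjusted p under 0.05, 8 Hox genes were lower, adding Hoxa2, Hoxa6, Hoxb6 and Hoxb7, beside 25.1% of all genes, and DESeq2 called 5 lower, adding Hoxa6, beside 11.7%. No Hox gene was called higher by edgeR's quasi-likelihood test, against 10% of all genes. At an unadjusted p under 0.05, 4 Hox genes were higher, beside 23.7% of all genes, and DESeq2 called 1 higher, beside 12.0%. The median log2 fold change was −0.23 over the Hox genes tested and −0.02 over all genes tested. DESeq2 gave an adjusted p to 28 Hox genes. Its Hox median of 0.11 was taken over every Hox gene with an E16.5 count, also those of very low count. With edgeR on every gene that had a count the median was 0.08. The sign of the family's median thus did not hold once genes of low count were included.

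Hoxa7, a central gene that patterns thoracic vertebrae, had 1127 and 989 counts in the E16.5 controls against 121 and 79 under MOF loss. Both cKO libraries lay far under both controls, with no overlap. From 36.2 ± 0.743 CPM (SD, n = 2) to 4.71 ± 1.93 CPM, it fell 7.74-fold (log2 fold change −2.95, SE 0.271, adjusted p = 0.000556, edgeR's quasi-likelihood test with Benjamini-Hochberg adjustment). By mean level per length it was first of the Hox genes in E16.5 control, not separated from the next, and 19th in MOF cKO, where its range overlapped that of Hoxb5. It kept its call under all 12 alternatives that could have ended it, as did Hoxb8.

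Hoxb8, a central gene also active in blood progenitors, had 711 and 934 counts in E16.5 control against 200 and 213 in MOF cKO. The 2 cKO libraries lay close together and under both controls. The gene fell 2.99-fold, from 28.5 ± 7.45 to 9.53 ± 0.721 CPM (log2 fold change −1.58, SE 0.220, adjusted p = 0.00191, the same edgeR test). Hoxc8, its paralog in the Hoxc cluster and a regulator of thoracic identity, had 797 and 985 counts in control against 241 and 334 in MOF cKO. Its groups did not overlap, and in both groups the second library was the higher. It fell 2.34-fold, from 30.8 ± 6.76 to 13.1 ± 1.45 CPM (log2 fold change −1.23, SE 0.201, adjusted p = 0.00348, the same edgeR test). In a single fit of all 8 libraries Hoxc8 was no longer called (adjusted p = 0.0111 by that test). Its log2 fold change in that fit was again −1.23. By edgeR and DESeq2 its adjusted p ranged from 5.50e-08 to 0.0111 over its alternatives.

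Hoxa5, which patterns the neck-to-thorax boundary and the lung, had 506 and 503 counts in control against 181 and 170 in MOF cKO. The groups were well apart in both libraries. It fell 2.13-fold, from 17.3 ± 1.17 to 8.14 ± 1.33 CPM (log2 fold change −1.09, SE 0.207, adjusted p = 0.00620, the same edgeR test). The call was lost without the second E16.5 control library (log2 fold change −1.02) and without the second MOF cKO library (−0.93). With a library left out its group holds 1 sample, so the spread in these fits comes from the other group alone.

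Between Hoxa5 and Hoxa7 lies Hoxa6, which had 117 and 89 counts in control against 19 and 5 in MOF cKO. Both cKO libraries were low, and at so few counts they differed widely from each other. Its log2 fold change of −2.61 had a wide SE of 0.718, and edgeR's quasi-likelihood test did not call it (adjusted p = 0.0252 after Benjamini-Hochberg adjustment), while DESeq2 did, as did edgeR with the replicate numbers as a block, with every gene that had a count, and without the first MOF cKO library.

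**Figure D2:**
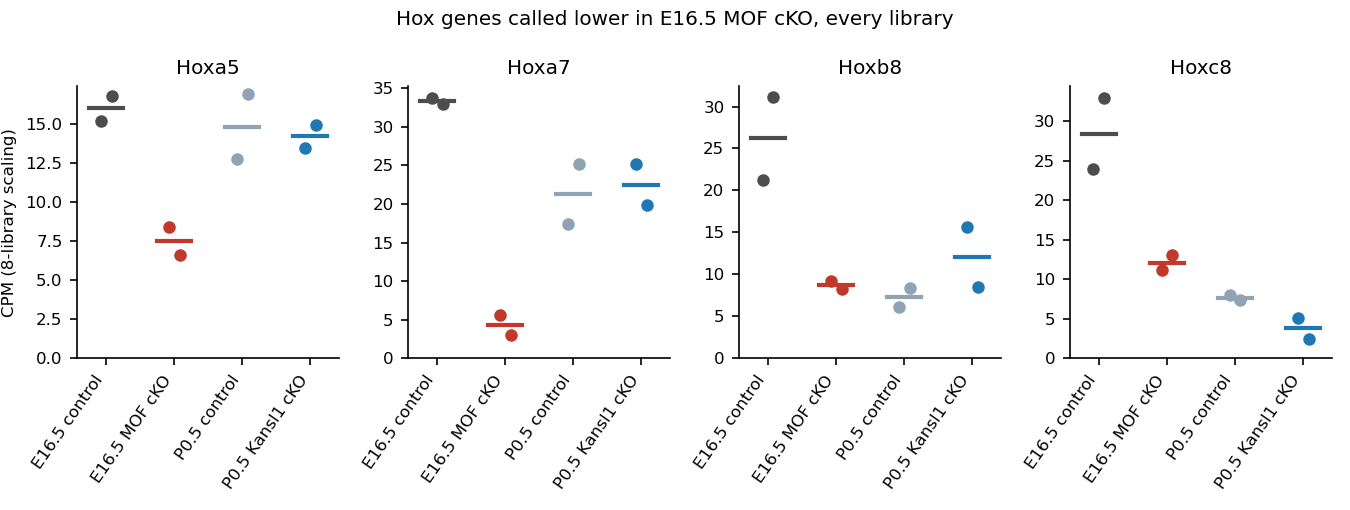
The 4 Hox genes called lower in E16.5 MOF cKO, in CPM scaled over the 8 libraries (vertical axis, from 0), in every library of the 4 groups; points are libraries and bars their mean. For each gene both MOF cKO libraries lie under both E16.5 controls, with 121 and 79 counts against 1127 and 989 for Hoxa7.

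On the anterior side of Hoxa5, the genes Hoxa2, Hoxa3 and Hoxa4 had log2 fold changes of −0.58, −0.34 and 0.30, and none was called. Hoxa9 stood at 22 and 17 counts in control against 24 and 9 in MOF cKO, and its groups overlapped. The summed level of the cluster was 91.8 and 93.4 CPM in control against 53.3 and 52.3 in MOF cKO, most of that difference being Hoxa7 and Hoxa5.

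In the Hoxb cluster, log2 fold changes ran from near 0 at the anterior end to the called value of Hoxb8 and back above 0. They were −0.02 for Hoxb2, −0.12 for Hoxb3, 0.20 for Hoxb4, −0.38 for Hoxb5, −0.63 for Hoxb6 and −0.70 for Hoxb7 on the near side of Hoxb8, and 0.57 for Hoxb9 on its far side. Hoxb8 alone was called among the 8 tested, whereas Hoxb7, with 367 and 445 counts in control against 182 and 192 in MOF cKO, reached an adjusted p of 0.0467 by edgeR's quasi-likelihood test after Benjamini-Hochberg adjustment. The Hoxb sum was 134 and 157 CPM in control against 119 and 121 in MOF cKO.

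The Hoxc cluster kept its summed level, at 81.7 and 98.6 CPM in control against 82.7 and 95.8 in MOF cKO, with Hoxc8 lower and the values of Hoxc5 and Hoxc6 above control. Hoxc5 had 447 and 443 counts in control against 374 and 563 in MOF cKO, and Hoxc6 had 459 and 518 against 414 and 671. After scaling their groups did not overlap, with log2 fold changes of 0.48 and 0.55, but neither was called. Hoxc4 and Hoxc13 had log2 fold changes of −0.08 and 0.56 with overlapping libraries. In the Hoxd cluster, Hoxd3, Hoxd4 and Hoxd8 were tested and none was called, with log2 fold changes of 1.67, −0.95 and −0.82 on at most 127 counts.

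By class, 4 of 15 central genes fell and 11 of the 15 had a negative log2 fold change, with a median of −0.70; of all 13956 genes tested 9.59% fell and 7109 had a negative value, with a median of −0.02. The 6 anterior genes tested had a median of −0.07 and the 3 posterior ones 0.56, and no gene of either class was called. The 15 Hox genes that were not tested had at most 15 counts in any E16.5 library. Among them, Hoxc10 had 0 counts in both controls and 15 and 4 in MOF cKO. With each control library set to 3 counts, it was at least 4.47-fold higher in MOF cKO. Without the first MOF cKO library this was at least 1.64-fold. These folds take the few MOF cKO counts as they stand, with no allowance for their own counting error.

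**Figure D3:**
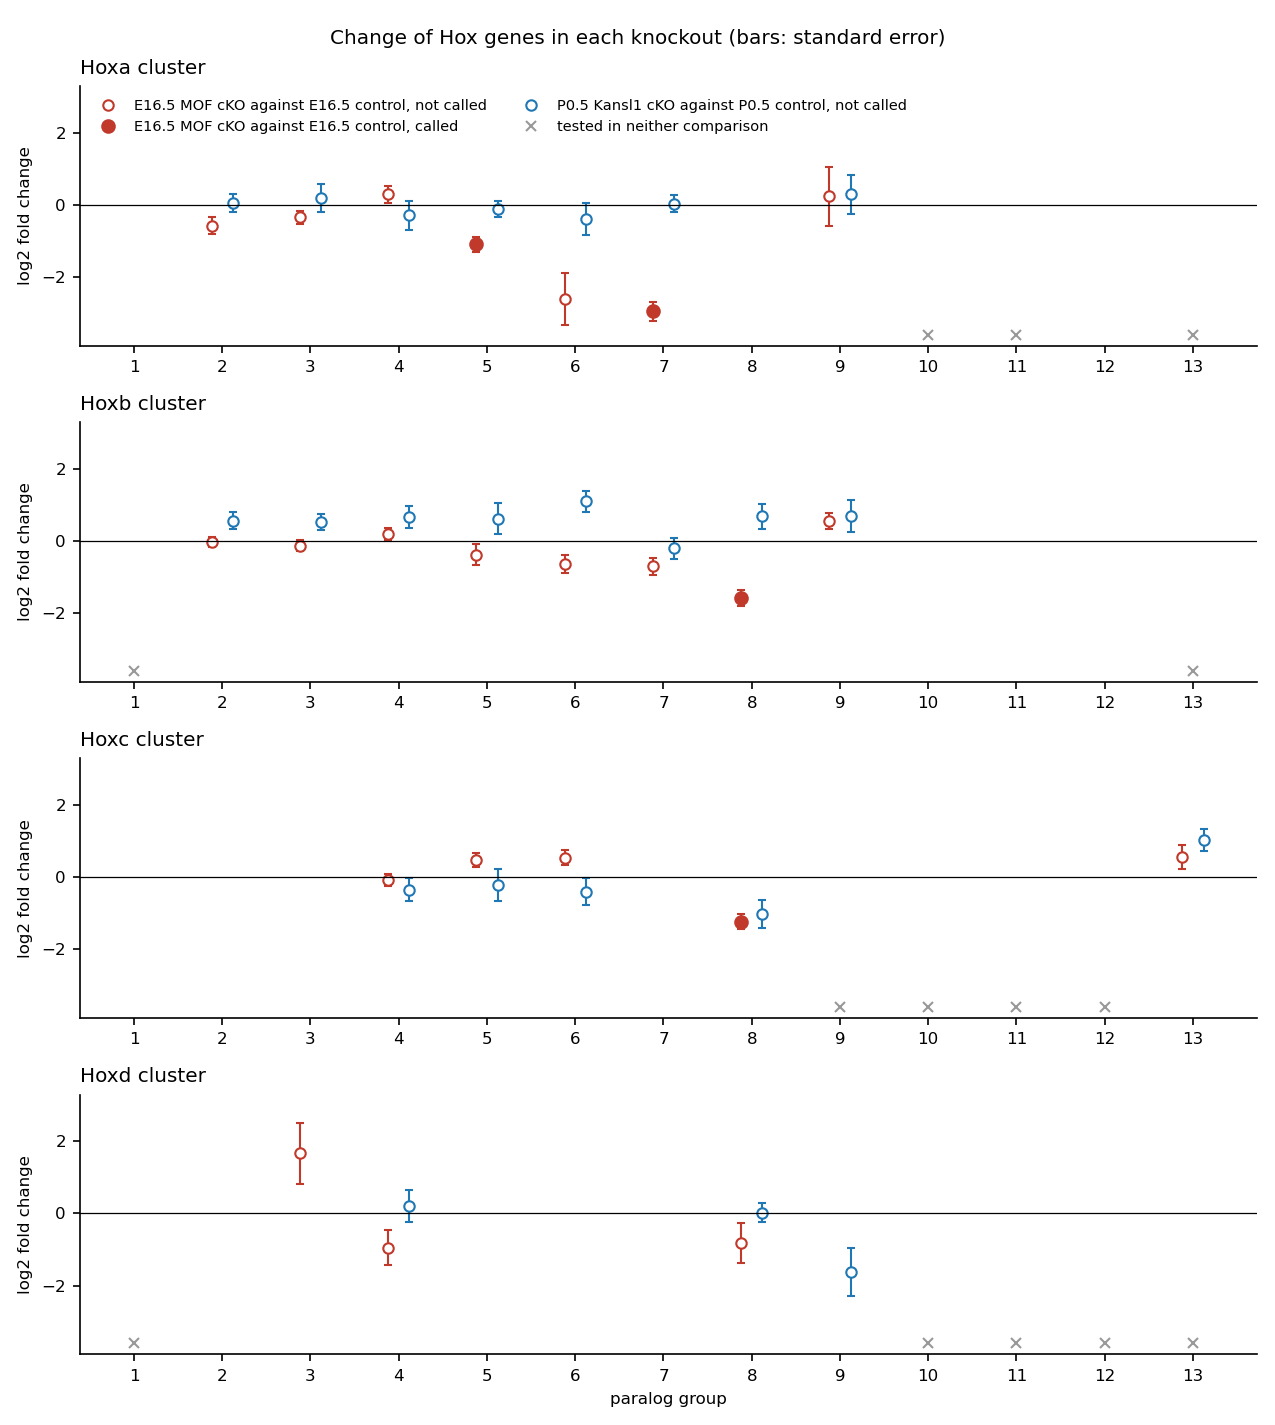
Log2 fold change (vertical axis) of tested Hox genes in E16.5 MOF cKO and P0.5 Kansl1 cKO against the control of the same stage, by paralog group (horizontal axis) with 1 panel per cluster; bars are standard errors, filled points were called and crosses mark genes tested in neither comparison. The 4 filled points are Hoxa5, Hoxa7, Hoxb8 and Hoxc8, and no Kansl1 point is filled.

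Cell type markers differed between the E16.5 groups as well. Of the 12 keratinocyte markers, Krt15, a basal keratin, fell in MOF cKO (log2 fold change −1.26) and Krt1 (1.67), Krt10 (1.12) and Perp (0.70) rose, beside 9.59% of all genes lower and 10% higher. Of 14 myeloid and other blood cell markers, 10 were tested and 7 rose in MOF cKO, their sum being 20.2 and 45.6 CPM in control and 97.8 and 133 in MOF cKO; Hbb-b1 and Hba-a1 were at 0 throughout, and Cd68 was the most abundant. Of 9 endothelial and mural markers, 8 were tested and Pecam1 and Acta2 rose, and their sum was 7.31 and 9.64 CPM in control and 34.1 and 35.9 in MOF cKO. Of the 14 fibroblast markers none was called, although 10 had positive log2 fold changes and the median was 1.01. Col1a1 had 3680 and 8876 counts in the control libraries and 7130 and 12581 in MOF cKO, so the second library of each group held more of this dermal collagen. The 9 melanocyte and Schwann cell markers also had no call, and summed to 23.9 and 63.5 CPM in control and 26.3 and 95.5 in MOF cKO. The 9 skeletal muscle markers summed to 1.24 and 1.77 CPM in control and 4.02 and 17.4 in MOF cKO, with no call. The part of these cells and of the keratinocyte differences in the Hox values was not tested.

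At P0.5, Kansl1 cKO epidermis was compared with control to ask the same question of the NSL complex. Among 13031 genes tested by edgeR's quasi-likelihood test, no gene was called lower (0%) and none higher (0%), so 0 of the 24 Hox genes tested were called in either direction. At an unadjusted p under 0.05, 2 Hox genes were lower (Hoxc8 and Hoxd9), beside 8.26% of all genes, and 4 were higher (Hoxb2, Hoxb3, Hoxb6 and Hoxc13), beside 7.43%. DESeq2 called 0 Hox genes in either direction, while it called 0.443% of all genes lower and 0.282% higher. The median log2 fold change was 0.05 over the Hox genes tested and 0.01 over all genes tested.

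The Hox values at P0.5 are given by cluster; no test compared the clusters. The 8 Hoxb genes tested had a median log2 fold change of 0.65, and 7 of the 8 were positive. Of all 13031 genes tested, 6697 were positive. Hoxb6 was at 1.11, with 33 and 86 counts in control against 232 and 116 in Kansl1 cKO. The 8 Hoxa genes had a median of −0.03, and Hoxa7 stood at 142 and 363 counts in control against 472 and 230 in Kansl1 cKO (log2 fold change 0.04). The 5 Hoxc genes had a median of −0.34, from −1.01 for Hoxc8, with 65 and 106 counts in control against 96 and 29 in Kansl1 cKO, to 1.03 for Hoxc13. None of these genes was called with 2 libraries a group.

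Of the Hoxd genes at P0.5, Hoxd4 and Hoxd8 had log2 fold changes of 0.21 and 0.02, and Hoxd9 of −1.62 on 15 and 11 counts in control against 6 and 6 in Kansl1 cKO. The 15 Hox genes not tested had at most 10 counts in any P0.5 library. Hoxc10 had 7 and 4 counts in control and 0 in both Kansl1 cKO libraries. With each Kansl1 cKO library set to 3 counts, it was at least 2.77-fold lower, and at least 1.35-fold without the first control library. Here too the few counts of the higher group, control, are taken as they stand. Hoxc9 had 8 and 10 counts in control against 3 and 2 in Kansl1 cKO.

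The P0.5 libraries also differed in other RNA. The first P0.5 control library stood apart for skeletal muscle genes, with 1054 counts of Acta1 and 474 of Myh8 against 23 and 6 in the second, and the 9 muscle markers summed to 251 and 4.46 CPM in control and 3.25 and 1.98 in Kansl1 cKO. Without that library the Hox median in Kansl1 cKO was −0.18, and without the second control library 0.22. The fibroblast markers had a median log2 fold change of −1.71, with 12 of 14 negative and none called, the melanocyte and Schwann cell markers summed to 477 and 535 CPM in control and 1033 and 1146 in Kansl1 cKO with none called, the blood cell markers to 188 and 223 against 276 and 299 with none called, and the endothelial and mural markers to 14.1 and 4.98 against 3.83 and 3.24 with none called. Cd207, Hbb-b1 and Hba-a1 were at 0 in all P0.5 libraries. The part of this RNA in the Hox values was not tested.

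Whether a Hox gene responded differently in the MOF and Kansl1 experiments was tested as the difference of the log2 fold changes, in one fit of all 8 libraries. Hoxa7 was the only Hox gene called of 27 tested, with a difference of −3.02 (SE 0.408, adjusted p = 0.00416, edgeR's quasi-likelihood test with Benjamini-Hochberg adjustment), and 1.17% of all 14565 genes tested were called lower. At an unadjusted p under 0.05 there were 6 with a negative difference (Hoxa5, Hoxa6, Hoxa7, Hoxb3, Hoxb6 and Hoxb8), beside 16.4% of all genes, and DESeq2 called 3 (Hoxa7, Hoxb6 and Hoxb8), beside 3.46%. For Hoxa7 the libraries show the contrast directly: both MOF cKO libraries lay far under their controls, and the Kansl1 cKO libraries lay within the range of theirs after scaling. The call was lost on leaving out the first E16.5 control library (adjusted p = 0.0130), the second (0.0134), the second MOF cKO library (0.0102), the first P0.5 control library (0.0152) or the first Kansl1 cKO library (0.0101), all by the same edgeR test and with the spread taken from the groups that keep 2 libraries, in a range from 9.98e-10 to 0.0152 over its alternatives, and the difference stayed between −3.51 and −2.51. No Hox gene was called with a positive difference by edgeR, beside 1.76% of all genes. At an unadjusted p under 0.05 there were 2, beside 14.8%, and DESeq2 called 0, beside 6.61%. Gene, stage, isolation and sequencer cannot be told apart in this difference. Markers of other cell types moved with it: 7 of 11 blood cell markers tested were called with a positive difference (median 4.41) and 1 of 14 fibroblast markers (median 2.73), and the muscle and the endothelial and mural markers had medians of 7.74 and 3.60 with no call. Their sums in each library are given above, and their part in the Hox difference was not tested.

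The control libraries of the 2 stages were compared to see which Hox genes are used in the sorted embryonic cells and in the newborn sheet, with stage, isolation and sequencer confounded so that they cannot be told apart. This comparison shares its E16.5 controls with the MOF comparison. Of 27 Hox genes tested, 10 were lower in P0.5 control: Hoxa3, Hoxb3, Hoxb4, Hoxb5, Hoxb6, Hoxb8, Hoxc4, Hoxc5, Hoxc6 and Hoxc8. Among all 14565 genes tested 20.6% were called lower. At an unadjusted p under 0.05, 14 Hox genes were lower, beside 33.2% of all genes, and DESeq2 called 11, adding Hoxb9, beside 17.1%. No Hox gene was called higher by edgeR's quasi-likelihood test, against 19.6% of all genes; at an unadjusted p under 0.05 there were 4 (Hoxc9, Hoxc10, Hoxd8 and Hoxd9), beside 28.7%, and DESeq2 called 3 (Hoxc10, Hoxd8 and Hoxd9), beside 22.3%. The median log2 fold change was −0.79 over the Hox genes tested, also with Hoxc10 set at its bound, and −0.13 over all genes tested. Scaling by library size alone moved these medians to −1.12 and −0.46.

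In the Hoxc cluster 4 of 7 genes tested were lower at P0.5, beside 20.6% of all genes. Hoxc5, a gene of the cervical and thoracic levels, stood at 13.4 and 14.8 CPM (scaled over the 8 libraries) in E16.5 control and at 1.47 and 2.64 in P0.5 control, from 447 and 443 counts and 12 and 38. It was 6.58-fold lower at P0.5 (log2 fold change −2.72, SE 0.300, adjusted p = 8.52e-05, edgeR's quasi-likelihood test with Benjamini-Hochberg adjustment). The P0.5 libraries lay under both E16.5 libraries, as they did for its neighbours. Hoxc4 stood at 24.9 and 24.1 CPM against 4.65 and 5.29, with a log2 fold change of −2.29, Hoxc6 at 13.8 and 17.3 against 2.94 and 4.80, with −1.97, and Hoxc8 at 23.9 and 32.9 against 7.95 and 7.37, with −1.89. The 9 Hoxc genes together summed to 81.7 and 98.6 CPM at E16.5 and 24.2 and 26.1 at P0.5.

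In the Hoxb cluster 5 of 8 genes tested were lower at P0.5, beside 20.6% of all genes. Hoxb8 stood at 21.3 and 31.2 CPM in E16.5 control and 6.12 and 8.42 in P0.5 control (log2 fold change −1.84), Hoxb6 had 470 and 660 counts against 33 and 86 (−1.82), and Hoxb4 stood at 16.2 and 17.1 against 5.51 and 4.52 (−1.74). Hoxb6 and Hoxb8 differed between the E16.5 controls by more than Hoxb4 did. Hoxb3 stood at 33.0 and 33.8 CPM against 10.8 and 11.3 (−1.59), and Hoxb5 at 5.66 and 5.91 against 1.84 and 2.02 (−1.58). By the edgeR test named above, the call of Hoxb5 was lost on leaving out any 1 of the 4 control libraries. Its log2 fold change in those fits lay from −1.66 to −1.44. The call of Hoxb6 was lost without the second E16.5 control (log2 fold change −1.37). That of Hoxb8 was lost without the second E16.5 control (−1.43) or the first P0.5 control (−1.64). Hoxb2 had a log2 fold change of −0.65, Hoxb7 of 0.04 and Hoxb9 of −1.39, and none of these was called. Hoxb9 narrowly missed the threshold; it was called lower by DESeq2, with library size alone, with every gene that had a count, and without either Kansl1 cKO library, and Hoxb2 with library size alone.

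Most of the Hoxa cluster was not called between the stages. Hoxa3, which patterns the pharyngeal region, was the exception, at 16.2 and 15.6 CPM in E16.5 control and 2.94 and 5.84 in P0.5 control (log2 fold change −1.81, SE 0.303, adjusted p = 0.000857, edgeR's quasi-likelihood test with Benjamini-Hochberg adjustment). Without the second P0.5 control library its log2 fold change was −2.44. Hoxa5 stood at 15.2 and 16.8 CPM against 12.7 and 16.9, with overlapping libraries, and Hoxa7 at 33.8 and 33.0 against 17.4 and 25.2, with a log2 fold change of −0.64 that was not called. In P0.5 control the order per length was led by Hoxb7 at 8.49 ± 3.03 CPM per kb. Hoxa5 at 7.89 ± 1.57 and Hoxa7 at 7.41 ± 1.94 came next. The ranges of these genes overlapped, and that of Hoxa7 also overlapped the next gene, Hoxa2. In Kansl1 cKO Hoxa7 at 7.82 ± 1.30, Hoxb7 at 7.62 ± 1.37 and Hoxa5 at 7.57 ± 0.549 overlapped likewise. There the range of Hoxa5 also overlapped the next gene, Hoxb2.

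In the Hoxd cluster 4 genes were tested, 2 with a negative and 2 with a positive log2 fold change, and none was called. Hoxd4 had 80 and 79 counts in E16.5 control against 11 and 17 in P0.5 control (log2 fold change −1.0), and Hoxd3 had 5 and 19 against 5 and 1 (−0.38). Hoxd8 had 65 and 127 counts in E16.5 control and 79 and 117 in the much shallower P0.5 control, or 1.95 and 4.24 CPM against 9.67 and 8.14. The groups did not overlap, and the log2 fold change was 1.52, which missed the threshold (adjusted p = 0.0123, edgeR's quasi-likelihood test with Benjamini-Hochberg adjustment). It was called by DESeq2, with RLE factors in place of TMM, with every gene that had a count, and without the second E16.5 control library or the second MOF cKO library, which is in the same fit. Hoxd9 had 5 and 0 counts at E16.5 and 15 and 11 at P0.5, and Hoxc9 had 5 and 3 against 8 and 10. Hoxc10 had 0 in both E16.5 controls and 7 and 4 at P0.5. With each E16.5 control library set to 3 counts, it was at least 5.97-fold higher at P0.5. Without the first P0.5 control library this was at least 2.93-fold. The few P0.5 counts are taken as they stand. The 12 Hox genes not tested in this comparison had at most 9 counts in any of the control libraries.

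Beside these Hox values, the stage comparison carried differences in cell type markers, against 20.6% of all genes lower and 19.6% higher. Of 11 blood cell markers tested 9 were higher at P0.5, and of 9 melanocyte and Schwann cell markers 7. Of 7 muscle markers tested 5 were higher, and of 14 fibroblast markers 2. The muscle markers summed to 251 CPM (scaled within the stage) in the first P0.5 control library and 4.46 in the second. A single fibroblast marker, Thy1, was lower, and no endothelial or mural marker was. Of the 12 keratinocyte markers Perp and the suprabasal keratins Krt1 and Krt10 were higher, and Krt5, Trp63 and Itgb4, genes of the basal layer, lower. Their part in the Hox differences was not tested.

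Hox proteins bind DNA with TALE cofactors of the Pbx, Meis, Pknox and Tgif families. All 11 cofactors were tested in MOF cKO and 2 fell, beside 9.59% of all genes. Pbx3 had 845 and 792 counts in E16.5 control against 334 and 344 in MOF cKO (log2 fold change −0.84), and Meis3 had 199 and 170 against 37 and 40 (log2 fold change −1.83). For both genes the cKO libraries lay under both controls. The median of the cofactors was −0.26. In Kansl1 cKO none of 9 tested was called, and between the control groups 7 of 11 were lower at P0.5, beside 20.6% of all genes. Pbx3 was also called in the test of the MOF effect against the Kansl1 effect, with a difference of −1.53.

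The regulators that hold Hox clusters open or closed were tested as well. Of 12 trithorax genes (MLL1 and MLL2 complex subunits, with the demethylases Kdm6a and Kdm6b), Kdm6b, which removes the Polycomb mark, rose in MOF cKO (log2 fold change 0.83) and none fell. Of 11 subunits of Polycomb repressive complex 2, which writes that mark, its alternative catalytic subunit Ezh1 and the accessory subunit Phf19 fell, with 918 and 907 counts of Ezh1 in control against 224 and 351 in MOF cKO (log2 fold change −1.26) and 546 and 456 of Phf19 against 92 and 193 (−1.42). Of 18 subunits of Polycomb repressive complex 1, Phc1 fell (−1.01) and Pcgf3 rose (0.81). The medians of the 3 lists were 0.04, 0.13 and 0.01, and 9.59% of all genes fell and 10% rose. No member of the 3 lists was called in Kansl1 cKO. Between the control groups, 8 trithorax genes, 6 of complex 2 and 7 of complex 1 were lower at P0.5 and none was higher, beside 20.6% of all genes lower and 19.6% higher.

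Of 13 genes of the retinoic acid, Wnt and growth factor signals that set Hox domains in the embryo, 6 were tested in MOF cKO and 6 in Kansl1 cKO, and none was called in either. Of 8 tested between the control groups, Rara, Rarg and Wnt3a were lower and Cyp26b1 and Aldh1a1 higher at P0.5, beside 20.6% and 19.6% of all genes. None of the 11 Evx and ParaHox genes, relatives of the Hox clusters, passed the filter in any comparison. Of 21 genes of the hair matrix and hair shaft, the tissue in which Hoxc13 acts, 13 were tested in MOF cKO and Tchh alone was called, higher by a log2 fold change of 1.29, beside 10% of all genes higher, and none of 19 was called in Kansl1 cKO. Between the control groups 9 of 20 hair genes tested were higher at P0.5 and 1 lower, with a median log2 fold change of 2.29.

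Position in the genome was taken from the GENCODE annotation of mm10. The Hoxa cluster spans chr6:52155590-52260880, the Hoxb cluster chr11:96194316-96368256, the Hoxc cluster chr15:102921103-103036852 and the Hoxd cluster chr2:74668310-74765142. The called genes Hoxa5 and Hoxa7 lie on the minus strand of chromosome 6, Hoxb8 on the plus strand of chromosome 11 and Hoxc8 on the plus strand of chromosome 15. The gene models of a cluster run into each other. Exons of Hoxc5 and Hoxc10 share 166 bases and those of Hoxd3 and Hoxd4 share 388, so reads there may have been dropped or assigned to either gene, and these 4 genes are less certain than the rest. The Hoxa cluster also has an antisense transcript, 2700086A05Rik, from chr6:52175217-52215076. Its span takes in Hoxa4, Hoxa5 and Hoxa6, covers most of Hoxa3 and reaches the 3′ end of Hoxa7. Because the sources used here do not say whether counting used strand, its reads and theirs may be mixed. It had 7 and 18 counts in E16.5 control against 2 and 4 in MOF cKO. The control values were few beside the 506 and 503 of Hoxa5. For Hoxa6 the margin was much narrower, since its libraries held only 117 and 89 with MOF present, then 19 and 5 after its loss. The part of such mixing in the Hoxa6 values was not tested.

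Of the 39 Hox genes, 22 are in the RefSeq promoter table of build GRCm38.p6, with 24 windows of 300 bases (250 before to 50 after the start). Their median ratio of observed to expected CpG was 0.626, against 0.384 over all 32851 windows, and their median GC content 57.7% against 52.7%. On either strand, the CCAAT box (CCAAT) was found in 62.5% of Hox windows and 37.4% of all windows, the GC box (GGGCGG) in 41.7% and 35.7%, the TATA box (TATAAA) in 16.7% and 13.6%, and a composite of Pbx and Hox half-sites (TGATNNAT) in 16.7% and 8.85%. Of the genes called lower in MOF cKO, Hoxa5, Hoxa7 and Hoxb8 are in the table. None of the 4 motifs was in the Hoxa7 window. The 250 bases before the start are shown for Hoxa5 (chr6:52204588-52204837, minus strand) and Hoxb8 (chr11:96281655-96281904, plus strand), because both genes fell in MOF cKO and no annotated Hox exon overlaps these bases. Capitals mark a CCAAT box on the opposite strand in Hoxa5, and in Hoxb8, in order, a GC box, 2 TATA boxes on the opposite strand, a CCAAT box and the composite on the opposite strand. A match is a description of the letters and not a bound site.
Hoxa5 promoter: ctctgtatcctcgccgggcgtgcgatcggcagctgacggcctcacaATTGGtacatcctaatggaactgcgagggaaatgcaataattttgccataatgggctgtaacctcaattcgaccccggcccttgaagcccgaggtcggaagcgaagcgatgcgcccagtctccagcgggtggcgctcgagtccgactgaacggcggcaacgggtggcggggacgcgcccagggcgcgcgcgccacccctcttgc
Hoxb8 promoter: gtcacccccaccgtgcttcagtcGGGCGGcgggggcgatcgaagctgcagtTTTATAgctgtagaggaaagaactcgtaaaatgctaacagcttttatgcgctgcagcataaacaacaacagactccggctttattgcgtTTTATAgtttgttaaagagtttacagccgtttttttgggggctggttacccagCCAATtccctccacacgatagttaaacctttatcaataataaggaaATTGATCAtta

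The Hox clusters also encode microRNAs that bind Hox messages, and the miR-196 genes sit beside paralog group 9 in the Hoxa, Hoxb and Hoxc clusters. The mature sequences from RefSeq (GRCm38.p6) are shown because several Hox genes named above carry matches to them, and their shared seed, bases 2 to 8, is in capitals. Mir196a-1 lies at chr11:96265187-96265208 on the plus strand and Mir196b at chr6:52230129-52230150 on the minus strand.
miR-196a: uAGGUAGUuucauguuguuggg
miR-196b: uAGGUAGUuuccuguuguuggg

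The complement of that seed, ACTACCT, is in the annotated 3′ UTR of 9 of the 39 Hox genes (23.1%), among them Hoxa5, Hoxa7 and Hoxc8, which fell in MOF cKO. Over all 21007 genes with a 3′ UTR it is in 6.55%, with median UTR lengths of 966 bases for Hox genes and 961 for all. The 4 matches of Hoxa7, on the minus strand at chr6:52215210-52215231, chr6:52215231-52215252, chr6:52215363-52215384 and chr6:52215400-52215421, are printed because no other Hox gene had as many; the capitals are the seed match.
Hoxa7 match 1: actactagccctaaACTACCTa
Hoxa7 match 2: aaaccatgatcaatACTACCTa
Hoxa7 match 3: agaggcactcccaaACTACCTa
Hoxa7 match 4: ggcacagccaaaatACTACCTa

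Of the Hox genes tested in MOF cKO, the 8 with a match had a median log2 fold change of −0.67 and 3 were called lower, and the 16 without one had a median of −0.10 and 1 was called lower, beside 9.59% of all genes and a median of −0.02. This division was made after the values were seen and was not tested, so nothing is read from it. Poly(A) counts of the hosts say little of the mature microRNA: Mir196a-1 had 81 and 69 counts in E16.5 control against 25 and 29 in MOF cKO; its log2 fold change of −1.05 was not called (adjusted p = 0.134, edgeR's quasi-likelihood test with Benjamini-Hochberg adjustment), and 2 and 3 counts in P0.5 control, where it was called lower than at E16.5 (log2 fold change −3.37).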

How the data were processed

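The authors deposited 1 table of HTSeq counts per library, raw counts per gene symbol with no normalization. The submitters' processing notes name TopHat2 and build mm10, whereas the study's methods name HISAT2 as the aligner; the strand setting and annotation of the counting are not given in the sources used here. Entries that name no gene held 21.1% to 26.0% of each table and were left out. Genes were tested with edgeR 4.0.16 (quasi-likelihood test, filterByExpr, TMM factors, Benjamini-Hochberg adjustment over all genes tested) in R 4.3.3, with DESeq2 1.42.0 as an alternative. MOF and Kansl1 were fitted separately, and the stage comparison and the difference of effects in one fit of all 8 libraries. The steps were tested on simulated data. Each of the 39 Hox genes was matched to GENCODE M21, whose exon length gave the level per kb. Full values are given for Hox genes that were called, single values for those tested and not called, and counts or ranges for the rest; from other lists, up to 4 called members with the largest change and the most abundant marker are named. Values of 1 Hox gene are not reported here, though it is included in counts, sums and medians. The members and lists were chosen with earlier results of these data known. The paper describes pairs of samples, and nothing says that each library came from a separate animal, so p-values measure the spread between these samples. Floors of 3 counts cover counting error alone.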

Additional observations from a re-analysis of the deposited data

Results flagged for a closer look

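Hoxa7 stood out because its response differed between the knockouts in a direct test: its log2 fold change in E16.5 MOF cKO minus that in P0.5 Kansl1 cKO was −3.02, a call lost on leaving out any 1 of 5 of the 8 libraries. It had 1127 and 989 counts in E16.5 control, 121 and 79 in MOF cKO, 142 and 363 in P0.5 control and 472 and 230 in Kansl1 cKO. The deleted gene, the stage, the isolation of the cells and the sequencer all differ between the experiments and cannot be told apart. In the same test 7 of 11 blood cell markers were called with a positive difference, beside 1.76% of all genes. Their part in the Hox difference was not tested.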

How the results depend on the processing

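The 4 Hox genes called lower in MOF cKO were among those called with DESeq2 (5), RLE (4), upper-quartile (4) or library-size scaling (4), both other filters (5 and 4) and the replicate block (5, with Hoxa6); a single fit of all 8 libraries called 3 of them. Hox genes called higher in MOF cKO went from 0 to 1 with DESeq2 and with every gene that had a count. The replicate block and an adjusted p of 0.05 also gave 1. All genes called higher went from 1395 to 1781, 1837, 1903 and 1943 in that order. The Hox count also depended on which library was left out. Hox genes whose MOF and Kansl1 effects differ went from 1 to 3 with DESeq2. They went to 4 with every counted gene or an adjusted p of 0.05. Over all genes the calls went from 426 to 1432, 1651 and 2011 in that order. Here too the Hox count depended on which library was left out. Hox genes called higher in P0.5 than in E16.5 control went from 0 to 3 with DESeq2 or an adjusted p of 0.05. They went to 1 with RLE or every counted gene. All genes called higher went from 2854 to 3482, 3486, 3191 and 3455 in that order. Leaving out a library also moved this Hox count. The Hox median in MOF cKO was 0.11 with DESeq2, there also over every counted Hox gene. It was −0.54 with library size alone and 0.0802 with every counted gene. Library size alone also moved the median of all genes, from −0.02 to −0.32. The Hox median was −0.33 at 1 CPM or more in 2 libraries and −0.0776 in a single fit. Over libraries left out it ranged from −0.38 to −0.10, and that in Kansl1 cKO from −0.18 to 0.22. The looser filters tested more genes of low count; other causes were not tested. Of 130 alternatives of counts and medians, 100 stayed within 1.5-fold (counts) or within 1 SD between libraries (medians). The 100 include every alternative of the Hox counts in Kansl1 cKO, which stayed at 0 where the main fit called no gene. Of 202 alternatives that could end one of 15 single-gene calls, 187 kept it, 15 lost it and 0 changed sign. Same-numbered libraries correlated at 0.206 in the MOF and −0.202 in the Kansl1 experiment, so the numbers do not show that samples are paired; with the replicate block 4166 genes (6 Hox) were called in MOF cKO and 0 in Kansl1 cKO. With the Kansl1 pairs crossed, a choice made after seeing the data, 1 gene and 0 Hox genes were called. With 2 libraries a group and 9108709 counts in the shallowest, small differences of the low posterior genes may have been missed. This was not tested for those genes.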

Other observations

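The genes around the Hox clusters were looked at as the 3 nearest on each side, 24 in all. In MOF cKO 19 were tested. Hibadh, an enzyme of valine breakdown beside the Hoxa cluster, fell from 986 and 863 counts to 328 and 453 (log2 fold change −0.83). Atp5g1 beside the Hoxb cluster and Atp5g3 beside the Hoxd cluster, which encode the same subunit of mitochondrial ATP synthase, rose (0.74 and 0.75), as did Nfe2l2, a regulator of the oxidative stress response beside the Hoxd cluster, from 1277 and 1099 to 1857 and 1996 counts (1.13). Their relative Atp5g2, beside the Hoxc cluster, was not called. The median of the neighbours was −0.09, and 9.59% of all genes fell and 10% rose. In Kansl1 cKO none of 20 tested was called, and between the control groups 6 of 20 were lower at P0.5 and 3 higher, beside 20.6% and 19.6% of all genes.

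Besides the Hox genes, 11 counted transcripts lie inside the clusters. Gm53, a long noncoding RNA in the Hoxb cluster, had 141 and 61 counts in E16.5 control, 50 and 103 in MOF cKO, 41 and 33 in P0.5 control and 81 and 37 in Kansl1 cKO, with overlapping libraries. Hotair in the Hoxc cluster and Hoxa11as in the Hoxa cluster had 0 counts in all 8 libraries.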
